A study of Mus musculus with 2 samples.

Results

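Capillary endothelial cells, the cells that line the narrowest vessels of the striatum, were taken from single-cell RNA of the whole tissue by a rule on detected genes. A barcode was a member when it had at least 300 detected genes and at least 1 unique molecular identifier (UMI, a tag that marks each captured mRNA molecule) for 4 or more of *Cldn5*, *Flt1*, *Ly6c1*, *Slco1a4*, *Itm2a*, *Pglyrp1* and *Adgrl4*. It was left out when *Kcnj8*, *Acta2* and *Tagln*, which mark mural cells, summed to more than 1 UMI, when 2 or more of the arterial genes *Gkn3*, *Bmx*, *Sema3g*, *Vegfc* and *Mgp* were detected, or when 2 or more of the venous genes *Slc38a5*, *Vwf*, *Icam1*, *Vcam1* and *Lrg1* were. The rule found 1075 of 12262 barcodes, 624 of 6898 in library 1 and 451 of 5364 in library 2. The members were thus chosen by the detected UMIs of these 20 genes, whose values are given as a description.

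The study profiled dissociated striatum of untreated adult mice, aged 8 to 10 weeks per the sample labels (the series' design text and the paper give other ages), by 10x Genomics 3′ single-cell RNA sequencing, and the 2 libraries used here are replicates of 1 condition with no other genotype or treatment. The strain is labelled C57/Bl6J, whereas the protocol text names C57BL/6NTac, and the labels call the suspension glia enriched. Tissue was digested with pronase, passed through a fine filter and cleared of debris, so the shares below are shares of recovered barcodes, not of cells in the striatum. The protocol names 2 versions of the reagent kit and 2 sequencers without saying which library had which, and the number of mice in each library is not stated.

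Brain capillaries form the main surface of the blood-brain barrier. Their endothelial cells are sealed by tight junctions, carry few transport vesicles and instead express carriers that bring glucose, amino acids, lactate and other solutes into the brain and pumps that return drugs and lipophilic compounds to the blood. Wnt signals through β-catenin maintain this barrier programme, and gene expression changes gradually along the vessel from artery to capillary to vein.

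Capillary cells made up 9.05% of barcodes in library 1 (exact binomial 95% interval 8.38 to 9.75%) and 8.41% in library 2 (7.68 to 9.18%). The mean was 8.73% ± 0.451 (SD, n = 2 libraries). Of the barcodes that carried at least 4 of the 7 markers and passed the mural limit, they made up 75.5% of 827 in library 1 and 71.4% of 632 in library 2, the rest carrying 2 or more arterial or venous genes. The median depth was 2532.5 UMIs and 1363 genes per cell in library 1 and 3003 UMIs and 1627 genes in library 2, and the summed depth was 2413226 and 1595873 UMIs. Arterial-gated cells (2 or more of the 5 arterial genes and fewer than 2 of the venous) had a median of 6131 and 5264.5 UMIs, and venous-gated cells (the converse) 5977 and 5950. The gates ask for detected genes, so that depth and class cannot be told apart fully, and thinning was among the alternatives. Scrublet, which scores barcodes against simulated doublets, marked 14 capillary cells (2.24%) in library 1 and 20 (4.43%) in library 2. No capillary barcode occurred in both libraries, and 9 barcodes of any kind did.

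Library 1 capillary cells carried markers of other cells more often than those of library 2. In library 1, 417 of the members (66.8%) had UMIs of 3 or more of the 7 markers of astrocytes, microglia or oligodendrocytes, against 114 (25.3%) in library 2. The 2 libraries are therefore given separately throughout, and the counts of called genes were also made without these barcodes.

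Levels below are CPM, the UMIs of a gene per 1000000 UMIs of the class in a library, with library 1 before library 2. They count molecules from their 3′ end and were not divided by transcript length. The 7 markers summed to 20778 and 24674 CPM in capillary cells, to 52.5 and 31.3 CPM in barcodes with fewer than 2 of the 7 markers (hereafter the other barcodes), and to 217 and 152 CPM in pericyte-gated cells. *Cldn5*, the main claudin of the endothelial tight junction, was at 4060 and 6716 CPM and in 94.1% and 97.3% of capillary cells. *Itm2a* was at 3943 and 5018 CPM, *Ly6c1* at 4738 and 3841 CPM and *Flt1*, a receptor for vascular endothelial growth factor, at 3134 and 3705 CPM. Lower levels were found for the organic anion transporter *Slco1a4* (2050 and 3172 CPM), *Pglyrp1* (1906 and 1089 CPM) and the adhesion receptor *Adgrl4* (947 and 1133 CPM). When each barcode was thinned to 1000 UMIs, which left out 138 and 93 shallower capillary cells, *Cldn5* was in 88.1% and 95.5% of capillary cells and in 1.23% and 1.26% of microglia-gated barcodes.

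The number of markers detected separated barcodes by degree more than by a gap in library 1. In library 1, the barcodes with 3 markers, just outside the rule, numbered 103, and those with 4, just inside it, numbered 72 (11.5% of members). In library 2 these were 17 and 27 (5.99% of members). All 7 markers were found in 380 members (60.9%) in library 1 and in 320 (71%) in library 2. The summed level of 20 endothelial identity genes that the rule does not use was 369.8 CPM at 3 markers, 1849 CPM at 4 and 15839 CPM at 7 in library 1, and 1594, 5861 and 16192 CPM in library 2. Members with 4 markers in library 1 thus held less endothelial RNA than the others, at a median of 905.5 UMIs per cell.

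**Figure D1:**
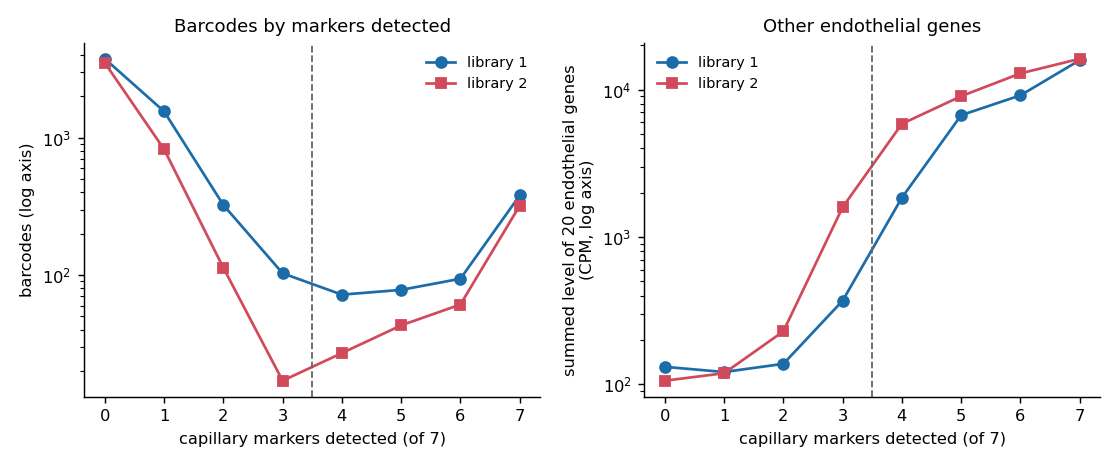
Barcodes that met the other criteria of the rule, by how many of the 7 capillary markers they carried: the number of barcodes (log axis) and the summed CPM of 20 endothelial identity genes (log axis), for both libraries, with the threshold of 4 markers as a dashed line. The identity genes rise with each step, from 1849 and 5861 CPM at 4 markers to 15839 and 16192 CPM at 7.

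The genes that set the other limits were low but not all absent. Members may carry 1 arterial gene, and 17.3% and 18% did, mostly *Sema3g* (45.6 and 39.5 CPM), with *Mgp* at 12.4 and 10.7 CPM and *Gkn3* at 7.05 and 10.7 CPM. *Bmx* (3.32 and 0 CPM) and *Vegfc* (0 and 4.39 CPM) were near the level that 3 UMIs give, which is 1.24 CPM in library 1 and 1.88 CPM in library 2. One venous gene was carried by 37.3% and 53.2% of members, mostly the amino acid transporter *Slc38a5* (137 and 301.4 CPM), with *Vwf* at 25.3 and 45.7 CPM. *Vcam1* was at 7.46 and 13.2 CPM and *Icam1* at 9.12 and 8.15 CPM, and *Lrg1* had no UMI. *Vcam1* was higher in astrocyte-gated barcodes, at 229.6 and 239.1 CPM. Of the mural genes, *Kcnj8* was at 3.73 and 2.51 CPM, *Acta2* at 14.5 and 6.27 CPM and *Tagln* at 11.2 and 5.01 CPM. Just outside the rule, 24 and 36 endothelial barcodes had exactly 2 arterial genes, 98 and 76 had exactly 2 venous genes, and 6 and 3 had exactly 2 mural UMIs.

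Genes outside the rule were endothelial too. The 20 identity genes summed to 13276 and 15441 CPM in capillary cells and to 142.6 and 121 CPM in the other barcodes, and at least 3 of them were detected in 95.4% and 98.4% of members. The adhesion molecule *Pecam1* was at 433 and 612 CPM and in 59.9% and 76.1% of capillary cells. *Cdh5*, the cadherin of the endothelial junction, was at 348 and 447 CPM. Transcription factors of the lineage were found at 387 and 367 CPM for *Sox17* and 86.6 and 97.1 CPM for *Erg*. The highest of the list by the mean of the 2 libraries were the flow-responsive factor *Klf2* (1487 and 3027 CPM), *Ramp2*, a subunit of an adrenomedullin receptor (2190 and 1677 CPM), *Ctla2a* (1302 and 1122 CPM) and *Egfl7* (1205 and 1236 CPM).

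Genes that mark the capillary stretch of the vessel were abundant. The 12 zonation genes listed summed to 9123 and 11662 CPM in capillary cells, 5366 and 7202 CPM in arterial-gated, 8247 and 8280 CPM in venous-gated cells and 434 and 477 CPM in the other barcodes. *Cxcl12* led the list, with the proteoglycan *Spock2* at 2213 and 2562 CPM, *Car4* at 908 and 1081 CPM and *Rgcc* at 762 and 929 CPM, while *Meox1* was low, at 20.7 and 13.8 CPM. Arterial genes outside the gate were led by glutamine synthetase *Glul* (1019 and 882 CPM) and *Tm4sf1* (509 and 822 CPM), and the arterial genes *Gja5* and *Cytl1* had no UMI. Venous genes outside the gate were led by *Tmsb10* (1145 and 1285 CPM), and the selectins *Sele* and *Selp* had no UMI in either library.

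Of the 15 genes with the largest ratio of capillary cells over the other barcodes, 7 were the markers of the rule and 8 were not. With 10 CPM added to both sides, the lower ratio of the 2 libraries was 208 for *Cldn5* and 197 for *Ly6c1*. Outside the rule it was 120 for *Ly6a* (2599 and 2345 CPM), 79.6 for *Ctla2a*, 74.5 for *Klf2* and 73 for the chemokine *Cxcl12* (2347 and 3142 CPM). It was 63.3 for the phospholipid transfer protein *Pltp* (2244 and 2834 CPM), 63.2 for *Abcb1a*, 62 for *Egfl7* and 61.1 for the vascular phosphatase *Ptprb* (822 and 1197 CPM). These ratios describe genes measured in the cells that the rule selected and were not tested.

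Barrier carriers were abundant. The 20 solute carriers listed summed to 10291 and 11023 CPM in capillary cells and to 855 and 857 CPM in the other barcodes. *Slc2a1*, the glucose transporter GLUT1, was at 3883 CPM in library 1 (exact Poisson 95% interval 3805 to 3962, counting error only) and 1818 CPM in library 2 (1752 to 1885), a difference well past counting error. After thinning it was in 89.9% and 78.8% of capillary cells and in 4.05% and 3.08% of microglia-gated barcodes. The thyroid hormone and anion carrier *Slco1c1* was at 1077 and 1585 CPM and the taurine carrier *Slc6a6* at 922 and 1320 CPM. The large neutral amino acid transporter is made of *Slc7a5* (333 and 977 CPM) and *Slc3a2* (727 and 869 CPM). Cationic amino acid carrier *Slc7a1* was at 404 and 582 CPM, the zinc carrier *Slc39a10* at 535 and 757 CPM and *Mfsd2a*, which carries docosahexaenoic acid as lysophospholipid, at 531 and 484 CPM. Organic anion carrier *Slc22a8* was at 328 and 459 CPM, the iron exporter *Slc40a1* at 229.6 and 375 CPM and the lactate carrier *Slc16a1* at 206 and 391 CPM.

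Efflux pumps summed to 2211 and 2491 CPM, most of it from *Abcb1a*, which encodes P-glycoprotein (794 and 1163 CPM), and *Abcg2* (956 and 924 CPM). *Abcc4* was at 167 and 134 CPM and *Abca2* at 102 and 73.9 CPM. *Abcb1b*, the paralogue of *Abcb1a*, was at 1.24 and 0 CPM. Near-identical stretches of such paralogues can share reads, so this split is uncertain.

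Receptors that carry cargo across the cell were present beside low levels of fenestration genes. The growth factor receptor *Igf1r* was at 1066 and 946 CPM, the immunoglobulin receptor *Fcgrt* at 511 and 469 CPM and the transferrin receptor *Tfrc* at 433 and 409.8 CPM. Caveolar genes were found at 395 and 384 CPM for *Cavin2* and at 115 and 317 CPM for *Cav1*. *Plvap*, the diaphragm protein of fenestrated and leaky vessels, was at 2.07 and 0 CPM, and the fatty acid receptor *Cd36* had no UMI in either library.

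Among the 19 genes of the junction list, which does not hold *Cldn5*, *Cdh5* or *Esam*, the highest by the mean of the 2 libraries were *Ctnnb1*, which encodes β-catenin (555 and 807 CPM), the scaffold *Tjp1* (438 and 533 CPM), occludin *Ocln* (279 and 352 CPM) and the tricellular junction receptor *Lsr* (276 and 318 CPM). *Cgn*, *Cldn1* and *Cldn3* had no UMI in either library, which allows up to 1.24 and 1.88 CPM by the count of 3, while the arterial connexin *Gja4* was at 4.97 and 5.01 CPM.

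**Figure D2:**
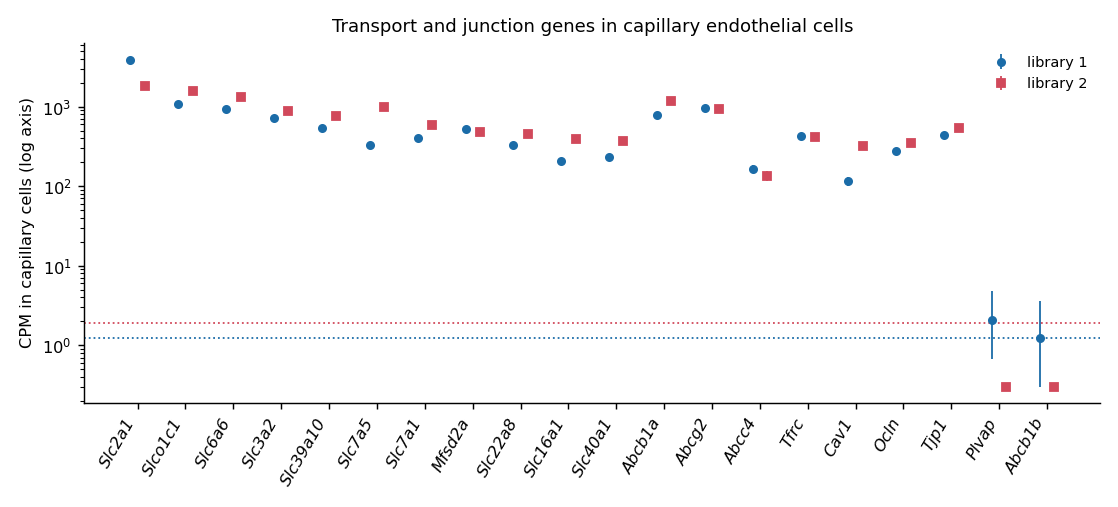
Levels of 20 transport and junction genes in capillary cells of each library, in CPM on a log axis, with exact Poisson 95% intervals as bars and the level of 3 UMIs in each library as dotted lines; values of 0 are drawn at the lower edge. *Slc2a1* lies highest, at 3883 and 1818 CPM, and *Plvap* and *Abcb1b* lie near or below the dotted lines.

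Targets and parts of the Wnt pathway were expressed, with the forkhead factor *Foxq1* at 460.4 and 462 CPM, the Wnt inhibitor and target *Apcdd1* at 331 and 387 CPM and the transcription factor *Lef1* at 266 and 434 CPM. The receptor *Fzd4* was at 177 and 219 CPM and the Wnt-inactivating enzyme *Notum* at 78.3 and 80.8 CPM. Genes of bone morphogenetic protein signalling were higher, with the target genes *Id1* at 1613 and 1713 CPM and *Id3* at 1261 and 1411 CPM, and the receptors *Eng* at 559 and 632 CPM and *Acvrl1* at 444 and 449 CPM. *Pdgfb*, the ligand that recruits pericytes, was at 287 and 419 CPM, and the tip cell gene *Esm1* had no UMI. In the Notch pathway, the receptor *Notch1* was at 209.7 and 208 CPM, the ligands *Jag2* at 151 and 155 CPM and *Dll4* at 63.0 and 50.8 CPM, and the target *Hey1* at 72.9 and 60.2 CPM. Matrix and adhesion genes included *Sparc* (2391 and 2050 CPM), the basement membrane collagen *Col4a1* (584 and 585 CPM) and the integrin subunit *Itga6* (388 and 492 CPM).

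RNA of other cell types was present, mostly at levels below those in the other barcodes. Pericyte markers summed to 419.8 and 797 CPM, against 661 and 585 CPM in the other barcodes, so in library 2 they were higher in the capillary cells. *Rgs5* led them (254 and 539.5 CPM), whereas *Vtn* was at 89.9 and 142 CPM, against 20703 and 26713 CPM in pericyte-gated cells. Microglia markers summed to 1211 and 938 CPM, against 7042 and 6357 CPM in the other barcodes, and astrocyte markers to 988 and 813 CPM, against 2811 and 3130 CPM. Oligodendrocyte markers summed to 8620 and 4131 CPM, against 25555 and 30363 CPM. Globin and other erythroid genes summed to 11983 and 5261 CPM in capillary cells and to 16957 and 1990 CPM in the other barcodes, so in library 2 alone they were higher in the capillary cells. *Hbb-bs* led them, at 7173 and 4020 CPM, and was in 36.7% and 7.98% of members. Markers of smooth muscle (68.0 and 48.9 CPM), fibroblasts (9.95 and 7.52 CPM), macrophages (9.95 and 10.0 CPM), oligodendrocyte precursors (65.5 and 34.5 CPM), neurons (143.8 and 77.1 CPM), neuroblasts (294.6 and 62.0 CPM) and choroid plexus or ependyma (1.24 and 1.25 CPM) were lower. The part of this RNA in the results below was not tested except by leaving out barcodes.

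**Figure D3:**
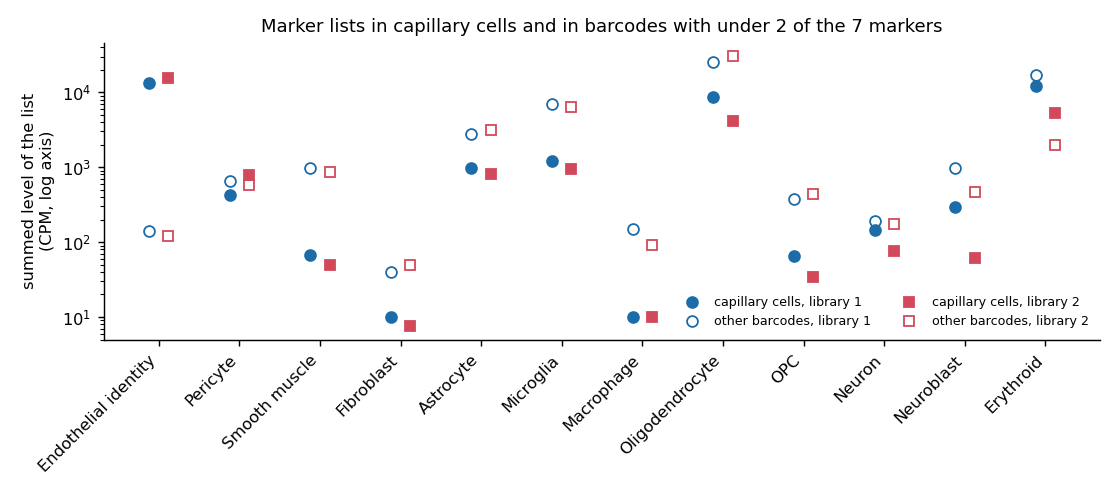
Summed CPM of 12 marker lists on a log axis, namely the endothelial identity genes and lists of other cell types, for each library. Filled points are capillary cells and open points are barcodes with fewer than 2 of the 7 capillary markers. Capillary cells lie below the other barcodes for microglia, astrocyte and oligodendrocyte markers in both libraries.

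For comparisons between classes, UMIs were summed per library and class and tested in edgeR (quasi-likelihood test, library as block), and p-values were adjusted after Benjamini and Hochberg over the whole table, at a threshold of 0.05. Changes are log2 ratios with their standard errors (SE). The 26 genes that any gate used are left out of the counts. Genes low in a class may have passed the filter on low counts through another class, where they are high. The paper gives a number of mice for its whole single-cell experiment but not for each library. With the library as block, p-values rest on how much differences between classes varied between these libraries, pooled over all classes of a fit. They give no measure of the spread between mice. The comparisons of the capillary cells with other classes share the capillary sums.

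Against venous-gated cells (130 and 103), capillary cells had higher *Cxcl12* and *Hey1* and lower *Nr2f2*. Of 9850 genes tested, 25 passed (0.254%), with 14 higher in capillary cells (0.142%) and 11 lower (0.112%), all 25 with the same sign in each library. *Cxcl12* was at 2347 and 3142 CPM in capillary and 747 and 805 CPM in venous-gated cells and was higher by 1.79 ± 0.18 on the log2 scale (SE, adjusted p = 0.00179, edgeR). The Notch target *Hey1* was at 72.9 and 60.2 CPM against 16.0 and 9.34 CPM (2.20 ± 0.35, adjusted p = 0.028). Alkaline phosphatase *Alpl* was at 43.5 and 79.6 CPM against 7.99 and 22.2 CPM (1.92 ± 0.28, adjusted p = 0.0163). *Tcim* rose by 1.68 ± 0.28 and *Gm9946* by 2.41 ± 0.35, the guidance receptor *Unc5b* by 1.37 ± 0.24 and *Tgfb2* by 1.09 ± 0.18. In each of these genes but *Tgfb2* (76.7 and 172 CPM against 31.0 and 87.6 CPM), both capillary libraries lay above both venous-gated ones. These genes were named because they were called, so this is no added support, and its share over all genes was not counted.

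Lower in capillary than in venous-gated cells was *Nr2f2*, the transcription factor of venous identity, at 27.8 and 39.5 CPM against 92.9 and 131 CPM (−1.68 ± 0.23, adjusted p = 0.0142, edgeR). Coagulation factor *F5* was at 11.6 and 11.3 CPM against 72.0 and 86.4 CPM (−2.58 ± 0.26, adjusted p = 0.00234). The ligand *Wnt5a* was at 12.9 and 9.40 CPM against 68.0 and 68.9 CPM (−2.41 ± 0.27), and the interleukin-1 receptor *Il1r1* at 17.4 and 9.40 CPM against 102 and 46.7 CPM (−2.30 ± 0.24). *F5* and *Wnt5a* may have passed the filter on low counts through the venous-gated cells, where they are higher. *Flrt2* (−1.40 ± 0.24) and the protease *Ctsc* (−1.17 ± 0.19) also fell. In each of these genes both capillary libraries lay below both venous-gated ones. As above, this is no added support for genes named because they were called.

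By list, 4 of 15 tested arterial genes outside the gate were higher in capillary than in venous-gated cells (*Hey1*, *Alpl*, *Unc5b* and *Tgfb2*; median log2 ratio 0.69) and 4 of 8 venous genes outside the gate were lower (median −1.2), beside a median of 0.004 over all genes, and DESeq2 called 2 of each list. Both lists cover the axis along which the gates divided the cells. None of the 20 solute carriers passed edgeR's test (median −0.11), with 5 at an unadjusted p under 0.05 and 0 called by DESeq2. None of the 20 identity genes passed either, with 3 at an unadjusted p under 0.05 and 0 called by DESeq2. Without the barcodes that carried a *Vcam1* UMI, a gene that astrocytes also express, 1 gene was left, *Cxcl12* (1.46, adjusted p = 0.0128, edgeR), and without the block 2 genes were. All 25 genes kept their sign in both settings. *Vcam1* is also a venous gate gene, and leaving out its barcodes left 104 and 75 venous-gated cells. Without the barcodes with markers of other classes 102 genes passed, among them 22 of the 23 of these genes that were still tested. With barcodes thinned to 1000 UMIs, 7 of the 20 still tested were called again when thinned after the gates and 1 of 13 when thinned before.

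Of the other cell types, none of the 4 neuron or 5 erythroid genes passed in this comparison in edgeR or DESeq2, with 2 of each list at an unadjusted p under 0.05 (median log2 ratios 1.1 and 2), and DESeq2 gave 2 neuron genes no adjusted p. Neuron markers summed to 143.8 and 77.1 CPM in capillary and 52.0 and 29.2 CPM in venous-gated cells, and erythroid genes to 11983 and 5261 CPM against 14359 and 28.0 CPM. Microglia markers summed to 1211 and 938 CPM against 1078 and 397 CPM and astrocyte markers to 988 and 813 CPM against 809 and 973 CPM. Their part in the calls was not tested beyond leaving out barcodes.

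Against arterial-gated cells (50 and 60), 115 of 9850 genes passed (1.17%), 58 higher (0.589%) and 57 lower (0.579%) in capillary cells, and 114 of the 115 had the same sign in each library. With doublets left out the split was 36 higher and 61 lower. The carbonic anhydrase *Car4* was at 908 and 1081 CPM in capillary and 114 and 46.7 CPM in arterial-gated cells (3.63 ± 0.28, adjusted p = 0.000179, edgeR). Transferrin receptor *Tfrc* was at 433 and 409.8 CPM against 114 and 125 CPM (1.84 ± 0.20, adjusted p = 0.00105). *Ctla2a* rose by 2.36 ± 0.19 and the matrix protein *Hmcn1* by 2.11 ± 0.30.

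Of the 20 solute carriers, 8 were higher and 0 lower in the capillary than in the arterial-gated cells (median 0.81, beside 0.013 over all genes), and DESeq2 called 4. *Slc7a5* was at 333 and 977 CPM against 168 and 257 CPM (1.50 ± 0.22, adjusted p = 0.0069, edgeR), *Slc22a8* at 328 and 459 CPM against 105 and 195 CPM (1.45 ± 0.20, adjusted p = 0.00448) and *Slc16a1* at 206 and 391 CPM against 103 and 143 CPM (1.27 ± 0.23, adjusted p = 0.0259). The others were *Slco2b1* (1.43), *Slc39a8* (1.32), *Slc40a1* (1.26), *Slc7a1* (1.25) and *Slc3a2* (1.03). *Slc2a1* was at 3476 and 2147 CPM in arterial-gated cells and did not pass (−0.01 ± 0.16, adjusted p = 0.998), so the gap between the libraries was larger than that between the classes. Of 12 genes of capillary zonation, 6 rose and 0 fell (median 1.4), with 5 called by DESeq2, and this list shares members with the carriers. Against venous-gated cells 1 of the 12 passed (*Cxcl12*, median 0.11), and 0 were higher and 4 lower on the arterial than on the venous side within the capillary cells (median −0.96). The Wnt target *Apcdd1* rose by 1.44 ± 0.21 and was the single call among 18 Wnt genes. None of 8 efflux pumps passed edgeR's test (median 0.057), with 1 at an unadjusted p under 0.05 and 0 called by DESeq2, which gave 1 of them no adjusted p.

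Of the arterial genes outside the gate, most were lower in capillary than in arterial-gated cells, with 0 of 15 higher and 10 lower (median −1.2), and DESeq2 called 7. Over all genes 0.579% were lower, with a median of 0.013. The gates divided these cells by arterial genes, so the direction of this list is no independent evidence. Those lower included elastic fibre genes, *Eln* at 4.56 and 2.51 CPM against 51.3 and 23.3 CPM (−2.77 ± 0.44, adjusted p = 0.0124, edgeR) and *Fbln5* at 0.829 and 0.627 CPM against 72.3 and 14.6 CPM. Both may have passed the filter on low counts through the arterial-gated cells, where they are higher. *Fbln5* rests on 3 UMIs in capillary cells, a pooled ratio of 62.4 in favour of the arterial-gated cells with a counting interval from 19.7 to 317. *Alpl* (−2.00 ± 0.22), *Tm4sf1* (−1.40), *Tgfb2* (−1.16), *Unc5b* (−1.06) and *Edn1*, the endothelin precursor (−0.86), fell as well. *Col18a1*, a basement membrane collagen, was at 2.90 and 0.627 CPM against 81.7 and 64.2 CPM (−4.21 ± 0.57, adjusted p = 0.00448) and *Egfl8* at 14.9 and 15.7 CPM against 105 and 166 CPM (−2.91 ± 0.26). *Col18a1* too may have passed the filter through a class where it is higher. *Sox17*, a factor of arterial fate, was at 387 and 367 CPM against 705 and 828 CPM (−0.98 ± 0.18). In each of these genes but *Tgfb2* (76.7 and 172 CPM against 163 and 432 CPM), both capillary libraries lay below both arterial-gated ones. Here too the genes were named because they were called, and the share of such genes over all genes was not counted. *Gja4*, another of the 10 arterial genes called lower, reversed when barcodes were thinned before the gates.

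Markers of other cells moved in the same comparison. Microglia markers summed to 1211 and 938 CPM in capillary and 147 and 222 CPM in arterial-gated cells, and 5 of 7 were called higher, among them *Cx3cr1* (147 and 113 CPM against 4.67 and 11.7 CPM, 3.83 ± 0.64). Prostaglandin synthase *Hpgds* (21.1 and 25.1 CPM), which microglia also express, had no UMI in arterial-gated cells and was at least 2.86-fold higher, taking 3 UMIs per library as the floor. *Rgs10* was at 89.5 and 45.1 CPM against 4.67 and 5.83 CPM (3.31 ± 0.70). Astrocyte markers summed to 988 and 813 CPM against 397 and 327 CPM, with 3 of 7 called higher, although one of them, *Slc1a3*, stood at −0.08 once barcodes with markers of other classes were left out. Oligodendrocyte precursor markers summed to 65.5 and 34.5 CPM against 478 and 189.6 CPM, with 1 of 4 called lower (median −2.4) and 1 called by DESeq2. *C1ql1* (−3.43 ± 0.41), *Gpr17* (−3.34 ± 0.47) and *Lhfpl3* (−2.89 ± 0.57), which are genes of that lineage, were among the 5 largest falls. Of the mural markers, *Mylk* was at 17.0 and 23.8 CPM against 60.7 and 93.4 CPM (−1.76 ± 0.23) and *Cspg4* at 13.7 and 7.52 CPM against 39.7 and 58.3 CPM (−1.87 ± 0.37), the latter at 1.80 when barcodes were thinned before the gates. The smooth muscle list summed to 68.0 and 48.9 CPM in capillary and 86.3 and 122.5 CPM in arterial-gated cells. In edgeR 0 of 7 oligodendrocyte markers (median 0.76) and 0 of 5 erythroid genes (median −0.074) passed. In arterial-gated cells oligodendrocyte markers summed to 8282 and 662 CPM and erythroid genes to 23026 and 4840 CPM, beside the capillary sums given above. The part of these markers in the other calls was not tested beyond leaving out barcodes. Without barcodes that carried 3 or more markers of another class, 207 genes passed, including 70 of the 87 that were still tested, and without the block 21 genes did.

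Pericytes share the capillary wall with these cells. Against pericyte-gated cells (153 and 111), 2537 of 9850 genes passed (25.8%), 1433 higher (14.5%) and 1104 lower (11.2%) in capillary cells. All 20 identity genes were higher (median log2 ratio 6.3, or 5.9 with genes at 0 set to their bound), 18 of 20 solute carriers (4.3, or 4.1), 5 of 8 efflux pumps and 9 of 12 zonation genes (3.8), beside a median of 0.015 over all genes. The gates had divided these classes by endothelial and pericyte markers, so the direction of the endothelial lists is no independent evidence. *Ly6a* was at 2599 and 2345 CPM against 19.9 and 11.9 CPM (7.13 ± 0.23, adjusted p = 7.28e-09, edgeR) and *Slc2a1* at 3883 and 1818 CPM against 69.5 and 26.8 CPM (5.91 ± 0.23, adjusted p = 1.78e-08). *Cdh5* had no UMI in pericyte-gated cells, which gives a log2 ratio of at least 5.64. *Ocln* rose by 5.67 ± 0.32, *Abcg2* by 4.17 ± 0.22, *Foxq1* by 4.13 ± 0.26 and *Pdgfb* by 4.31 ± 0.29. The nitric oxide synthase *Nos3* rose by 4.84 ± 0.41. It rests on 3 UMIs in pericyte-gated cells, a pooled ratio of 44.8 with a counting interval from 15.2 to 218.

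Some genes of the capillary wall went the other way or did not pass. The nucleotide-sugar receptor *P2ry14* was at 3.73 and 5.64 CPM in capillary and 1296 and 1484 CPM in pericyte-gated cells (−7.62 ± 0.39, adjusted p = 7.53e-08, edgeR), and the folate carrier *Slc19a1* at 5.39 and 5.01 CPM against 713 and 805 CPM (−6.61 ± 0.31). The extracellular superoxide dismutase *Sod3* (−6.71 ± 0.33) and the amino acid carrier *Slc6a20a* (−6.93 ± 0.38) fell as far. These genes may have passed the filter on low counts through the pericyte-gated cells, where they are higher. Of 15 basement membrane and adhesion genes, 3 were higher in capillary cells, among them *Itga6* (5.42 ± 0.26), and 8 were lower, among them *Itga1* (−1.47 ± 0.17) and *Lama4* (−1.80 ± 0.21). The median of this list was −0.54, and DESeq2 called 9 of the 15. Over all genes 14.5% were higher and 11.2% lower, with a median of 0.015. *Car4*, which separated capillary from arterial-gated cells, was at 952 and 876 CPM in pericyte-gated cells and did not pass (0.22 ± 0.23, adjusted p = 0.57), nor did *Slc22a8* (0.30 ± 0.18, adjusted p = 0.268). *Nr2f2* was at 369 and 595.9 CPM in pericyte-gated cells, above its levels in venous-gated cells, and was lower in capillary cells (−3.66 ± 0.23, adjusted p = 2.61e-07, edgeR).

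Markers of further cell types moved in this comparison too. All 5 erythroid genes were called higher in capillary cells (median log2 ratio 4.2), with sums of 11983 and 5261 CPM against 1925 and 20.9 CPM in pericyte-gated cells. Lower in capillary cells were 2 of 4 oligodendrocyte precursor markers (median −1.7) and the astrocyte marker *Slc1a3*. Smooth muscle markers summed to 68.0 and 48.9 CPM against 452 and 509.5 CPM, and fibroblast markers to 9.95 and 7.52 CPM against 427 and 644 CPM. Part of these lists did not pass the filter on low counts and the rest may have passed through classes where they are high, so their calls are not counted. The part of this RNA in the other calls was not tested beyond leaving out barcodes.

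Among themselves, capillary cells were divided by the single arterial or venous gate gene that the rule allows. Cells with 1 arterial and no venous gate gene (arterial side) numbered 75 and 39, cells with 1 venous and no arterial gate gene (venous side) 200 and 198, cells with neither 316 and 172, and cells with 1 of each 33 and 42. The arterial side was mostly set by *Sema3g* (68% and 69.2% of its cells) and the venous side by *Slc38a5* (72.5% and 79.3%). The sides were alike in depth, with medians of 4012 and 3699 UMIs on the arterial side and 3531.5 and 3315 on the venous side, whereas cells with neither gene had 1375 and 1767. In those cells low depth and the absence of a gate gene cannot be told apart.

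Of 9109 genes tested, 48 differed between the arterial and the venous side (0.527%), 22 higher (0.242%) and 26 lower (0.285%) on the arterial side, each with the same sign in both libraries. *Car4* was at 378 and 256 CPM on the arterial side and 1406 and 1544 CPM on the venous side (−2.22 ± 0.26, adjusted p = 0.00324, edgeR). *Tmsb10*, an actin-binding peptide, was at 491.5 and 352 CPM against 1560 and 1813 CPM (−2.03 ± 0.27, adjusted p = 0.00432). The secreted factor *Ndnf* was at 48.6 and 39.8 CPM against 162 and 529.8 CPM (−2.54 ± 0.33, adjusted p = 0.00432). *Nr2f2* was at 5.40 and 5.68 CPM against 45.1 and 61.0 CPM, on 3 UMIs on the arterial side, a pooled ratio of 9.54 in favour of the venous side with a counting interval from 3.16 to 47.2. None of these genes overlapped between the sides, but they were named because they were called, and the share without overlap over all genes was not counted.

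Carriers differed within the capillary cells as well. *Slc16a1*, the lactate carrier, was at 105 and 153 CPM on the arterial and 305 and 497 CPM on the venous side (−1.60 ± 0.20, adjusted p = 0.00432, edgeR). *Slc40a1* (−1.30 ± 0.20) and *Slc22a8* (−1.15 ± 0.22) were lower too, so that 3 of 20 carriers fell and 0 rose (median −0.59, beside −0.0025 over all genes), and DESeq2 called 4. *Tfrc* (−1.13 ± 0.22), *Apcdd1* (−1.21 ± 0.22) and *Ctla2a* (−1.17 ± 0.17) were lower on the arterial side. *Slc2a1* was at 4402 and 1619 CPM against 4149 and 1863 CPM and did not pass (−0.06 ± 0.17, adjusted p = 0.98).

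Higher on the arterial side were 6 of 14 arterial genes outside the gate (median 1.1, 5 called by DESeq2), beside 0.242% of all genes and a median of −0.0025. Of 8 venous genes outside the gate 2 were lower (median −1.2, 1 called by DESeq2). The sides were set by arterial and venous gate genes, so both lists cover the axis that divided them. Among the arterial genes called were *Alpl* at 91.8 and 193 CPM against 26.4 and 50.6 CPM (1.77 ± 0.23, adjusted p = 0.00432, edgeR) and *Unc5b* at 89.1 and 170 CPM against 39.6 and 40.3 CPM (1.52 ± 0.28, adjusted p = 0.0318). *Edn1* (1.05 ± 0.19), *Tm4sf1* (1.08 ± 0.19) and *Tgfb2* (1.15 ± 0.19) rose, as did *Sox17* (0.90 ± 0.17). *Slc26a10* was at 151 and 159 CPM against 19.8 and 6.49 CPM (3.22 ± 0.47, adjusted p = 0.00807). The matrix gene *Fbln2* was at 29.7 and 51.1 CPM against 1.10 and 0 CPM, on 1 UMI on the venous side, a pooled ratio of 61.5 with a counting interval from 9.83 to 2548. *Rad54b* (2.06 ± 0.40) and *Arhgap10* (2.01 ± 0.38) rose as well.

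Markers of other cells differed between the sides as well. Those of astrocytes summed to 324 and 278 CPM on the arterial side and 1450 and 767 CPM on the venous side, and 4 of 7 passed as lower on the arterial side (*Ntsr2*, *Slc1a3*, *Gja1* and *Aldoc*). Oligodendrocyte markers were higher on the arterial side, at 6593 and 12499 CPM against 4320 and 1550 CPM (median log2 ratio 1.4), with 6 of 7 at an unadjusted p under 0.05, none past the adjusted threshold in edgeR and 1 called by DESeq2. Microglia markers were at 1107 and 3147 CPM against 1468 and 427 CPM and erythroid genes at 172.9 and 16044 CPM against 10923 and 7193 CPM, in opposite directions in the 2 libraries. *Vcam1*, which astrocytes express, put 6% and 3.03% of the venous-side cells there. The part of these markers in the differences was not tested beyond leaving out barcodes. Without barcodes that carried a *Vcam1* UMI 53 genes passed, 36 of them among the 48, and without barcodes with markers of other classes 58 passed, including 28 of the 44 that were still tested. Without the block 1 gene passed.

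The levels of these genes across all 5 classes, from arterial-gated through arterial side, neither and venous side to venous-gated cells, show which of them changed in steps. *Car4* was at 114, 378, 687, 1406 and 1655 CPM in library 1 and at 46.7, 256, 837, 1544 and 1406 CPM in library 2. *Alpl* went the other way, at 189, 91.8, 32.6, 26.4 and 7.99 CPM in library 1 and 327, 193, 72.5, 50.6 and 22.2 CPM in library 2. *Cxcl12* was highest within the capillary cells, at 1507, 3060, 2474, 1815 and 747 CPM in library 1 and 2290, 2829, 3755, 2688 and 805 CPM in library 2. *Nr2f2* was at 2.33, 5.40, 15.8, 45.1 and 92.9 CPM in library 1 and 23.3, 5.68, 30.7, 61.0 and 131 CPM in library 2, so its lowest level lay on the arterial side in library 2. The classes were made from detected arterial and venous genes, and this order is a description of levels, not a test of a trend.

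**Figure D4:**
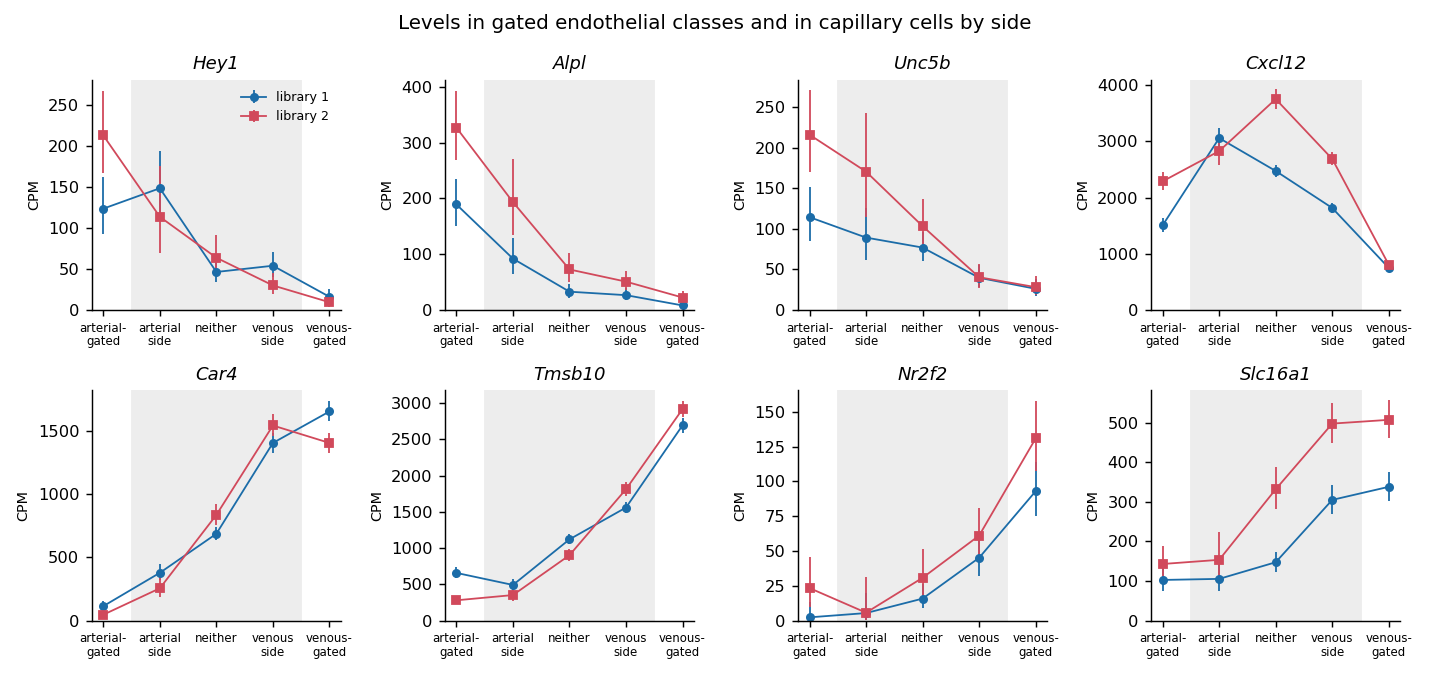
Levels of *Hey1*, *Alpl*, *Unc5b*, *Cxcl12*, *Car4*, *Tmsb10*, *Nr2f2* and *Slc16a1* in CPM, in each library, from arterial-gated cells through capillary cells of the arterial side, neither and the venous side (grey) to venous-gated cells, with exact Poisson 95% intervals as bars. *Alpl* falls from 189 and 327 CPM to 7.99 and 22.2 CPM, *Car4* is lowest in arterial-gated cells, and *Cxcl12* is highest within the capillary classes.

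The upstream sequences of 3 genes on which these comparisons turn are shown because their levels marked the capillary cells against arterial-gated cells (*Car4*), against venous-gated cells (*Cxcl12*) and between the sides (*Nr2f2*). Each is the 250 bases before the RefSeq gene start in GRCm38.p6, on the gene's strand, 5′ to 3′, and capitals mark a match to the letters CCGGAAG of the ETS factors, read on either strand. They lie at chr11:84957504-84957753 (plus strand), chr6:117168285-117168534 (plus strand) and chr7:70366747-70366996 (minus strand).
Car4: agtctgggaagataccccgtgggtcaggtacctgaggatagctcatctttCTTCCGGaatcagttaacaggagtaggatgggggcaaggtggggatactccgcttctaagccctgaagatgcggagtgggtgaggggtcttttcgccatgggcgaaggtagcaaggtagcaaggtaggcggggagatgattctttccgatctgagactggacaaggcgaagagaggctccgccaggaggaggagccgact
Cxcl12: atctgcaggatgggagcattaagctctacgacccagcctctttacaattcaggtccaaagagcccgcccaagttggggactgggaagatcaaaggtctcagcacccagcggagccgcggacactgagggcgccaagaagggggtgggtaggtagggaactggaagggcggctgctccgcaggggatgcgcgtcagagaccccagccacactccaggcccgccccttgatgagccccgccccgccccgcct
Nr2f2: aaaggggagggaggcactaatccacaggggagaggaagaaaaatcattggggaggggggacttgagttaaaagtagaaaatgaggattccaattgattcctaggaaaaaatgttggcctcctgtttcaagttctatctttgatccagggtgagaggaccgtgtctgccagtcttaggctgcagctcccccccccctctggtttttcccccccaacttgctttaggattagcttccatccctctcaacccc
In windows of 250 bases before to 50 after the start, on both strands, CCGGAAG was found in 9.12% of 27025 promoters, GTGGGAA of RBPJ in 6.39% and ACAATGG of SOX factors in 3.71%. The capitals in *Car4* begin at base 51 of its window and read on the opposite strand. None of the 3 motifs' letters is in the other printed stretches, and the ETS letters are in 0 of the 7 marker promoters. A match of letters is not a binding site. In the annotation of GRCm38, *Car4* (ENSMUSG00000000805) spans 84957786 to 84966044 of chromosome 11, *Cxcl12* (ENSMUSG00000061353) 117168535 to 117181367 of chromosome 6 and *Nr2f2* (ENSMUSG00000030551) 70351944 to 70366735 of chromosome 7.

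**Figure D5:**
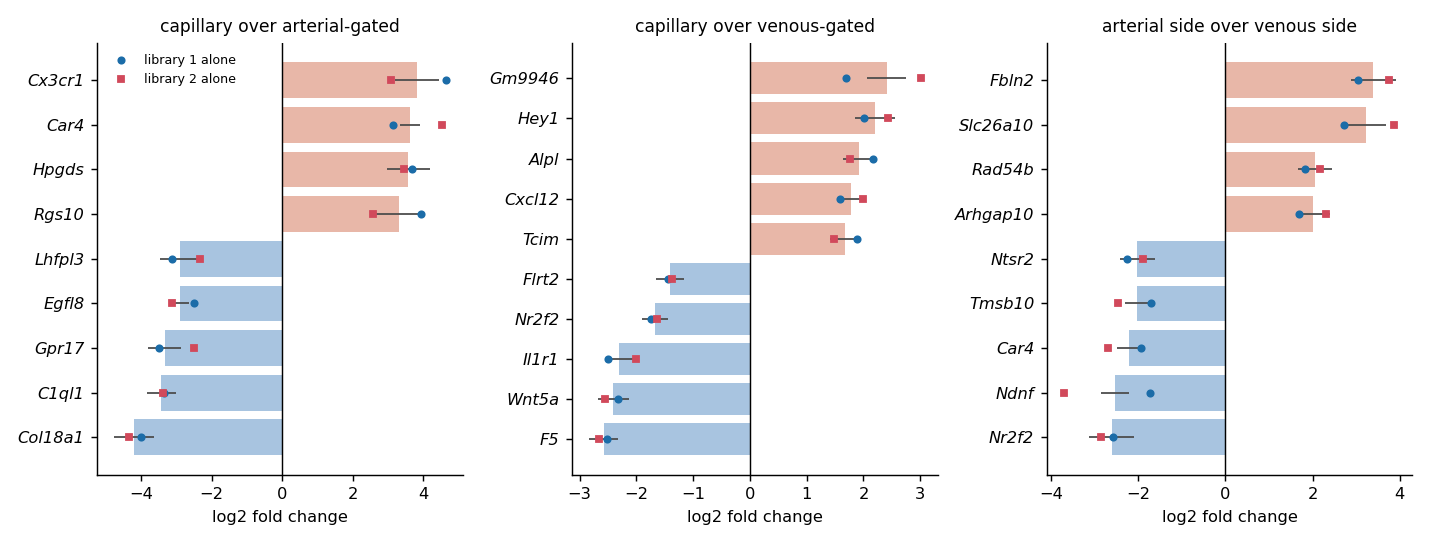
Log2 ratios of the largest named rises and falls in 3 comparisons (capillary over arterial-gated, capillary over venous-gated, and arterial side over venous side of the capillary cells), with bars for the edgeR estimate, error bars for its SE and points for each library alone. The bar of *Car4* is at 3.63 against arterial-gated cells and that of *Cxcl12* at 1.79 against venous-gated cells.

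Between the libraries, capillary cells were compared without a test, since both are of 1 condition. Of 4131 genes at 50 CPM or more in at least 1 library, 33 were at least 2-fold higher and 71 at least 2-fold lower in library 2 (2.52% in all). For some of these genes the level in the other barcodes was low and differed less. *Ndnf* was at 104 and 337 CPM (2.30 and 2.67 CPM in the other barcodes), *Cav1* at 115 and 317 CPM (12.5 and 14.7 CPM) and *Slc2a1* at 3883 and 1818 CPM (73.7 and 63.9 CPM). *Klf2* was at 1487 and 3027 CPM (10.1 and 12.4 CPM). Others differed several-fold in the same direction in the other barcodes. These include *Slc7a5* at 333 and 977 CPM (4.53 and 16.4 CPM), *Zbtb16* at 115 and 7.52 CPM (47.9 and 4.48 CPM), *Rpl9* at 1464 and 356.5 CPM (1132 and 227 CPM) and *Lars2* at 217 and 635 CPM (134 and 393 CPM). Kit version, mice and depth cannot be told apart as sources of these differences.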

How the data were processed

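The authors deposited raw UMI counts per gene and barcode for each library. Per the submitters' processing notes they were made with Cell Ranger 4.0 on mm10, and the study's methods name another version. The files hold 32285 genes and were not filtered or normalised further. Barcodes with at least 300 detected genes were gated on detected genes as described, and pericyte-gated cells by at least 4 of 7 pericyte markers, fewer than 4 capillary markers and at most 1 UMI of *Acta2* and *Tagln*. Intervals are exact at 95% and cover counting error only.

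Counts were summed per library and class. In edgeR 4.0.16 (R 4.3.3, limma 3.58.1), TMM factors, filterByExpr, a prior count of 2 and the quasi-likelihood test were used, with the library as a block because all classes of a library come from 1 suspension. One fit took 8 sums of 4 classes and another 10 sums of the arteriovenous classes. Adjustment followed Benjamini and Hochberg. The study's own test treats cells as replicates and was not used. The fits were checked on simulated counts. Python 3.11.15, numpy 2.4.6, scipy 1.17.1, pandas 2.3.3, scanpy 1.11.5 (Scrublet at an expected rate of 6%) and matplotlib 3.10.9 were used. Promoters are RefSeq's for GRCm38.p6.

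The members, the 31 gene lists and the named genes were chosen with earlier results of these data known. Named are the 20 genes of the rule, the 5 largest rises and falls per comparison (at least 20 CPM in a class, same sign in both libraries), the 15 genes of largest ratio, and in each list the 4 members of highest level, those under 3 UMIs and those past the threshold. In the text these are given in part, and a few are not reported here. Alternatives were DESeq2 1.42.0, library sizes alone, no filter on low counts, no block, thinning to 1000 UMIs, doublets left out, under 20% mitochondrial UMIs, other marker minimums and each library alone. Thinning before the gates, leaving out barcodes with 3 or more markers of another class or with a *Vcam1* UMI, and a minimum of 5 markers for the counts of genes were added after seeing the data. Other assays of the study were not analysed here.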

Additional observations from a re-analysis of the deposited data

How the results depend on the processing

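The share of barcodes that were capillary cells was 9.63% with 3 or more markers and 7.95% with 5 or more, 9.43% among barcodes under 20% mitochondrial UMIs, 11.89% with no arterial and venous exclusion and 10.3% when barcodes were thinned to 1000 UMIs before the gate. It ranged from 8.408 to 9.046% when each library was left out in turn. A fit on 1 library has no residual degrees of freedom, so no call was made there, and the sign in each library stands in the report.

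The count of genes called depended on the fit, and causes were not tested unless stated. Against arterial-gated cells, where 115 genes passed, 69 passed with DESeq2, 457 with no filter on low counts, 21 with no replicate block, 58 of 1642 tested when barcodes were thinned before the gates, and 207 without barcodes with markers of another class. With doublets left out 97 passed, 36 higher and 61 lower. Against venous-gated cells, where 25 passed, the counts were 13 with DESeq2, 150 with no filter, 2 with no replicate block, 64 with doublets left out, 6 of 1642 tested when thinned before the gates, 102 without barcodes with markers of another class and 1 without barcodes with a *Vcam1* UMI. Against pericyte-gated cells, where 2537 passed, they were 1318 when thinned after the gates, with 3243 genes tested, and 922 when thinned before. Between the arterial and venous side, where 48 passed, they were 259 with no filter, 1 with no replicate block and 131 with doublets left out. With doublets left out, 83 of the 113 genes of the arterial comparison still tested, all 25 of the venous comparison and 46 of the 48 of the sides were called again. Thinning before the gates kept 29 of 62 arterial, 1 of 13 venous, 729 of 879 pericyte and 17 of 27 side calls still tested, and thinning after them 53 of 81, 7 of 20, 1164 of 1401 and 22 of 42.

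For 250 pairs of a gene and a comparison, 7 values reversed. With barcodes thinned before the gates, against arterial-gated cells *Cspg4* was at 1.80, *Gja4* at 1.06 and *Itga6* at −0.14, and against pericyte-gated cells *Hspg2* was at −0.13, *Tgfb2* at −0.16 and *Tjp1* at −0.081. Without barcodes with markers of another class, *Slc1a3* was at −0.077 against arterial-gated cells. Of 3126 values, 2680 kept their direction and, where a test was made, their side of the threshold, and 279 no longer passed. The other 160 kept their direction and moved by more than the SD between the libraries when 1 library was left out, 73 of them against pericyte-gated cells without library 1 and 45 without library 2, and 11 and 20 against arterial-gated cells.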

Other observations

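Immediate early genes, which cells switch on rapidly when stimulated, summed to 4907 and 6410 CPM in capillary cells and 820 and 869.7 CPM in the other barcodes, led by *Jund* (869 and 1164 CPM) and *Jun* (753 and 1223 CPM), with *Fos* at 374 and 598 CPM. Against pericyte-gated cells 10 of 14 were higher in the edgeR fit above (median log2 ratio 2.1), beside 14.5% of all genes tested and a median of 0.015. In edgeR 0 of the 14 passed against arterial-gated cells (median 0.0083), against venous-gated cells (median 0.061) or between the sides (median 0.27). Heat shock genes summed to 4315 and 2776 CPM, against 3589 and 2353 CPM in the other barcodes, with *Hspb1* at 1911 and 1060 CPM and *Hspa8* at 1438 and 1112 CPM. Of 8 tested, 3 were higher and 2 lower than in pericyte-gated cells (median −0.4), and DESeq2 called 3. Over all genes tested there, 14.5% were higher and 11.2% lower.

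Genes of antigen presentation and the interferon response summed to 3530 and 3970 CPM, against 955 and 909 CPM in the other barcodes. *Ifitm3* was at 929.5 and 1112 CPM, and the class I genes *H2-D1* at 718 and 791 CPM and *H2-K1* at 358 and 432 CPM, while the class II gene *H2-Ab1* had no UMI in library 2. Against pericyte-gated cells 13 of 14 tested were higher (median log2 ratio 2), beside 14.5% of all genes tested and a median of 0.015. Against arterial-gated cells *Ifitm3* was lower (−0.79 ± 0.15), the single call among 14 (median −0.31, beside 0.013 over all genes). Vasoactive genes included the endothelin-converting enzyme *Ece1* (232 and 319.6 CPM), *Edn1* (145 and 174 CPM), *Nos3* (124 and 172 CPM) and the stretch-gated channel *Piezo1* (60.9 and 96.5 CPM). The 13 measured genes of glycolysis and lactate summed to 1962 and 1578 CPM, against 2716 and 1981 CPM in the other barcodes, with *Gapdh* at 481 and 179 CPM against 955 and 375 CPM. Cell cycle genes summed to 148.3 and 107.8 CPM, and 3.69% and 1.77% of capillary cells carried 2 or more of them.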
